A study of Mus musculus with 12 samples.

Results

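10 genes of lymphocytes and antibodies were followed in livers of germ-free (GF) and conventionalized (CV) mice: Cd3e and Cd3g of T cells, Nkg7, Gzma and Ccl5 of cytotoxic T and NK cells, Cd79b of B cells, and Ighm, Igha, Igkc and Jchain, which encode parts of antibodies. They were chosen by name from the 41128 genes of the deposited table. 7 were found by the symbol in that table, and Ighm, Igha and Igkc, for which it gives no symbol, were found by Ensembl identifier through GENCODE mouse release 21. 9 of the 10 had a mean of at least 10 size-factor-normalized reads over the 12 libraries and entered the test, and Igha, with a mean of 5.95, was below 10.

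All mice were C57BL/6 littermates born germ-free and kept in sterile isolators until weaning at day 21. GF mice then stayed in the isolators, and CV mice were housed for 3 weeks on soiled bedding from other cages of the facility, which carries microbes. Livers were taken at 6 weeks of age from 3 mice labelled male and 3 labelled female in each condition, with 1 library per mouse, so each condition holds 6 libraries. CV mice changed housing as well as microbes, and these cannot be told apart here. The comparison asks how lymphocyte and antibody transcripts in the liver differ after 3 weeks of colonization, within each labelled sex.

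T cells recognize antigen through a receptor whose signal is carried into the cell by the CD3 chains. Cytotoxic T cells and NK cells, both abundant among lymphocytes of the mouse liver, kill through granules that hold granzymes. B cells carry an antibody on their surface, and plasma cells secrete it. IgM is the first class made, and IgA is the class of mucosal surfaces, made mostly by plasma cells of the gut and secreted as a polymer held by the J chain.

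The libraries held 5993619 to 15290835 reads in genes, and their make-up differed between conditions. 7 abundant loci, among them Lars2 and both ribosomal RNA genes of the mitochondrion, took 41.8 to 69.4% of the reads in GF libraries and 5.39 to 21.9% in CV libraries. This left 1834565 to 5303292 reads for other genes in GF and 6943462 to 14411498 in CV. The library labelled CV male 3 had a value of 2382 for Xist, the RNA of the inactive X chromosome, and 0 reads of the Y-linked genes examined, which goes against its label. The tests of most single members in males are therefore also given without it. Counts over lists, counts of libraries that do not overlap, fold limits and shares in males include it. Hepatocyte markers summed to 184066 to 746527 in GF and 695887 to 1019388 in CV libraries, and red cell markers to 2892 to 33284 in GF and 979 to 3232 in CV. The part of library make-up, hepatocyte RNA and blood in the results below was not tested. In whole liver, fewer cells of a type and less RNA per cell cannot be told apart.

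The sequences of 2 constant region exons are shown first, because the IgM and IgA results rest on reads being assigned to the right isotype gene. Each line gives bases 1 to 300 of the first constant exon on the coding strand, from GENCODE transcripts on build GRCm38, at chr12:113259937-113260236 for Igha and chr12:113422431-113422730 for Ighm, both on the minus strand. Capitals mark positions identical between them in a global alignment.
Igha: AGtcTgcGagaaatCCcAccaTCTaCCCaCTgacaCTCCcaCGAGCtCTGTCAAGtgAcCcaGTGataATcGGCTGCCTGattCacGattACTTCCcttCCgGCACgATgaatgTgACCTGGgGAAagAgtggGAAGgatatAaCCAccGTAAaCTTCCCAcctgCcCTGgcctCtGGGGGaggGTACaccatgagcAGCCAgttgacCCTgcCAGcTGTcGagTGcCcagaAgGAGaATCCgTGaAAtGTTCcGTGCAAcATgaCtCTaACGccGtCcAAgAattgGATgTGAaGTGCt
Ighm: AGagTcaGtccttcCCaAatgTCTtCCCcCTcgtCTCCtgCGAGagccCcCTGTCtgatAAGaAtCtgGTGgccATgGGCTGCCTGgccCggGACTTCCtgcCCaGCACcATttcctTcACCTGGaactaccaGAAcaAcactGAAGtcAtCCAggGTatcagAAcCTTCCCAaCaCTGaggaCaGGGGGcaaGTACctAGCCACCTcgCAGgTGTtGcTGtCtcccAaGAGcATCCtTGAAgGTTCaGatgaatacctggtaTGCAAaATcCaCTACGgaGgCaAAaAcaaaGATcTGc
Of the aligned columns 173 were identical (50.4%), 102 differed and 68 were gaps, and the longest run of bases shared in the alignment was 9. Mature antibody messages join such an exon to a rearranged variable region, which the isotypes can share.

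The promoters of the genes Cd3e, Cd3g, Nkg7 and Gzma are shown because all of them fell in CV livers. Each runs from 250 bases before to 50 bases after the start of the gene, from RefSeq on build GRCm38.p6, at chr9:45009562-45009861 (minus strand) for Cd3e, chr9:44980382-44980681 (minus strand) for Cd3g, chr7:43436888-43437187 (plus strand) for Nkg7 and chr13:113100932-113101231 (minus strand) for Gzma. Capitals mark matches on either strand to the ETS core, whose letters are GGAA, or to the RUNX core, whose letters are TGTGGT. They are short motifs of 2 families of transcription factors that act in lymphocytes, and no match of one overlapped a match of the other.
Cd3e: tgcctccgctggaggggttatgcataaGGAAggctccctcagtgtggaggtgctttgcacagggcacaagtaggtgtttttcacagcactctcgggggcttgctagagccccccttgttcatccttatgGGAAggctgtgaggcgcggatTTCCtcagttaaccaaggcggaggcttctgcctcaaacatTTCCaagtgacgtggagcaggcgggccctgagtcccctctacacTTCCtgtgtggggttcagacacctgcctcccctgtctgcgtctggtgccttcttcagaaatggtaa
Cd3g: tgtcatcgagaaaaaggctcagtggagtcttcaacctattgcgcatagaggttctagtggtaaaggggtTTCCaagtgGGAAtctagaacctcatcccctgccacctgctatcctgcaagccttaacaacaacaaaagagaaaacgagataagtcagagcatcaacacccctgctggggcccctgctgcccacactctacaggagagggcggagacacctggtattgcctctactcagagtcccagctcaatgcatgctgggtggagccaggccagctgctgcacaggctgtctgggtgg
Nkg7: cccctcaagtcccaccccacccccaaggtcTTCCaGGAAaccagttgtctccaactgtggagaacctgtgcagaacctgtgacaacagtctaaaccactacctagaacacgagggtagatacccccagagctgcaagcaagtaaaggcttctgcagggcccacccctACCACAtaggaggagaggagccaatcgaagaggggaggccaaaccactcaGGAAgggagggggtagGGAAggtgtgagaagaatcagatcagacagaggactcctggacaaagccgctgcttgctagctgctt
Gzma: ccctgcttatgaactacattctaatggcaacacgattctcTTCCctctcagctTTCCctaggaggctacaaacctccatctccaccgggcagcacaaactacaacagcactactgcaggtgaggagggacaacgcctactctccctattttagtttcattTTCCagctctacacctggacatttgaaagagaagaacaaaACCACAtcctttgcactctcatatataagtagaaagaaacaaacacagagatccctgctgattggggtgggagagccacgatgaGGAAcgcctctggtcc
Cd3e held 5 ETS core matches, Cd3g 2, Nkg7 4 and Gzma 4. Nkg7 and Gzma each held 1 RUNX core match, and Cd3e and Cd3g held 0 in these windows. Of all 32851 promoters in the table, 96.0% held the ETS core (median of 3 matches) and 16.8% the RUNX core. A match is only a match of letters.

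The genes of T cells and cytotoxic lymphocytes were lower in CV livers. All 5 (Cd3e, Cd3g, Nkg7, Gzma and Ccl5) had lower values in every CV library than in any GF library, and their mean over 6 CV libraries was 2.81-fold (Gzma) to 4.43-fold (Ccl5) below that over 6 GF libraries. Of the antibody genes, Ighm and Jchain fell and Igha, at 0 in all GF libraries, appeared in all CV libraries. Cd79b did not pass the test and neither did Igkc. In all, 7 of the 9 tested members fell and 0 rose over both sexes (limma, Benjamini-Hochberg adjusted p under 0.05), where 28.7% of 11782 genes fell and 32.3% rose. Of all genes called, 52.9% were higher in CV with the deposited size factors, 78.6% when values were scaled to all reads and 30.6% when they were scaled to the reads outside the abundant loci. Among the 11782 genes 5926 rose and 1615 fell when scaled to all reads. When scaled to the reads outside the abundant loci 2145 rose and 4864 fell. The members had a median log2 change of -1.52, and all tested genes had one of 0.07. Changes are given as CV minus GF in log2(value + 1), a scale on which low genes change less than their reads do.

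**Figure D1:**
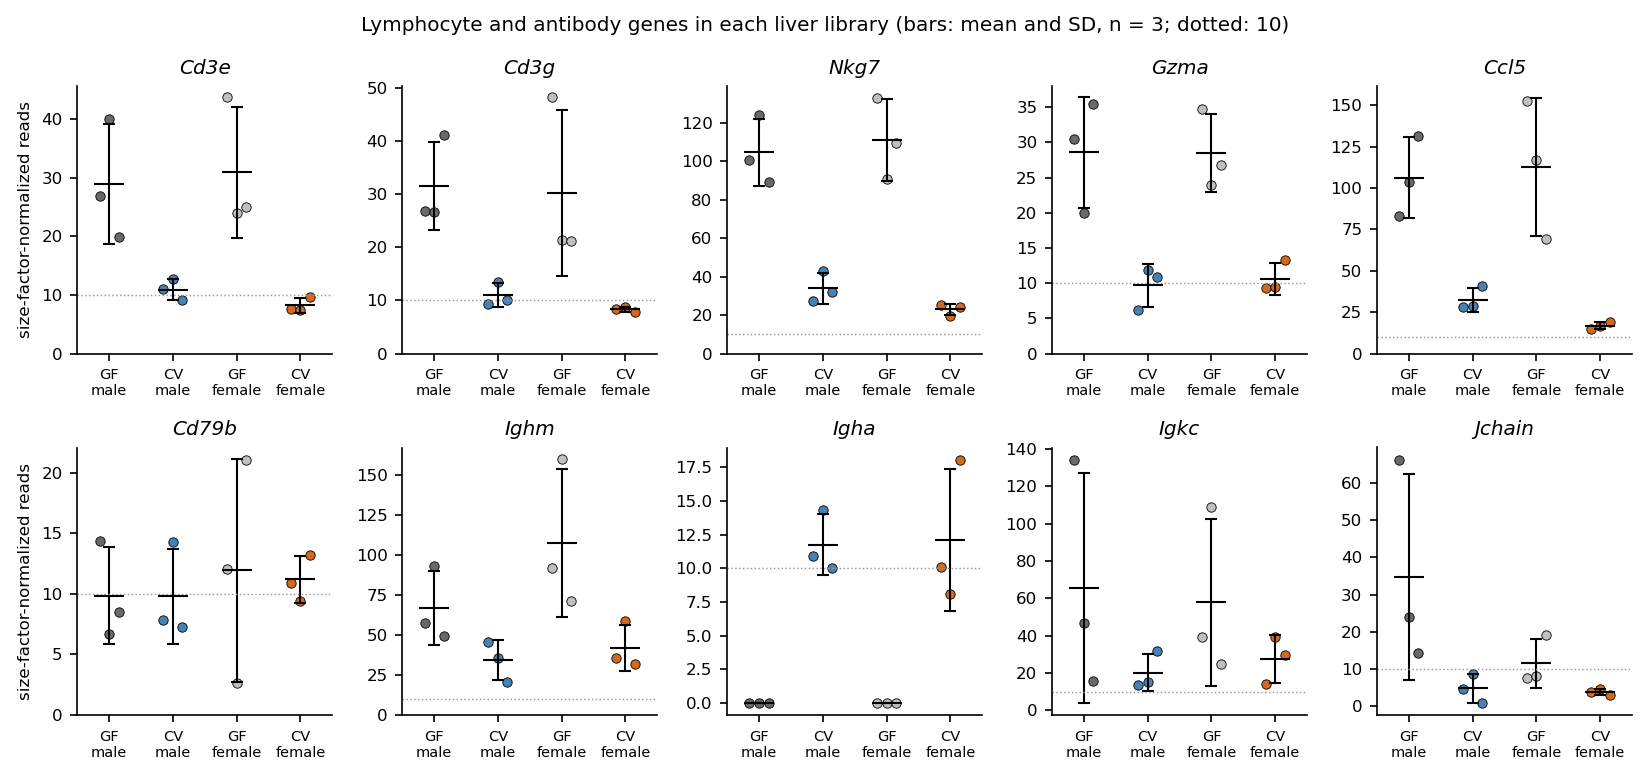
Size-factor-normalized reads of the 10 genes in each of the 12 libraries, by condition and labelled sex, with the mean and SD of 3 libraries and a dotted line at 10. Nkg7 lies between 89.3 and 132.8 in GF libraries and between 19.5 and 42.9 in CV libraries, and Igha is at 0 in GF libraries only.

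Cd3e (ENSMUSG00000032093, chr9:44998740-45009627, minus strand) encodes the epsilon chain of CD3. Its values were 26.9, 39.9 and 19.8 in GF males and 10.9, 12.7 and 9.09 in CV males. In females they were 43.8, 23.9 and 24.9 in GF and 7.57, 7.39 and 9.63 in CV. The highest CV library, a male, was below the lowest GF library, and the CV female mean of 8.20 ± 1.25 (SD, n = 3) was below 10. Cd3e fell by 1.28 ± 0.41 (SE) on the log2 scale in males and by 1.75 ± 0.41 in females (limma adjusted p = 0.0275 and 0.00183). The change in males was -1.17 without the library CV male 3 (adjusted p = 0.0735), and it also missed the threshold when GF male 1 (0.0739), GF male 2 (0.0935) or CV male 1 (0.0543) was left out. An antisense predicted gene, which is not in the table, overlaps 135 bases of Cd3e exons.

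Cd3g (ENSMUSG00000002033, chr9:44969572-44980431, minus strand) encodes the gamma chain of CD3 and lies near Cd3e on the same strand. It stood at 26.9, 26.6 and 41.1 in GF males and at 9.37, 13.5 and 9.99 in CV males. GF females had 48.3, 21.3 and 21.1 and CV females 8.41, 8.73 and 7.83. The groups did not overlap, GF female 1 was the highest library as it was for Cd3e, and all 3 CV females were below 10. The log2 change was -1.43 ± 0.41 (SE) in males and -1.64 ± 0.41 in females (limma adjusted p = 0.018 and 0.00325). Without CV male 3 it was -1.38 in males (adjusted p = 0.0429), and the call in males was lost without GF male 3 (0.0813) and without CV male 1 (0.0502).

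Nkg7 (ENSMUSG00000004612, chr7:43437073-43438249, plus strand) encodes a membrane protein of cytotoxic granules. It had 100.3, 123.8 and 89.3 in GF males against 27.1, 42.9 and 31.8 in CV males. It had 132.8, 90.4 and 109.3 in GF females against 25.2, 19.5 and 24.1 in CV females. No library of either condition came near the other, and the mean was 3.08-fold lower in CV males and 4.83-fold lower in CV females. The log2 change was -1.61 ± 0.28 (SE) in males and -2.22 ± 0.28 in females (limma adjusted p = 0.0013 and 1.64e-05), and in males it was -1.57 without CV male 3 (0.00385).

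Gzma (ENSMUSG00000023132, chr13:113093825-113100981, minus strand) encodes granzyme A, a protease of those granules. Values in males were 30.4, 19.96 and 35.4 for GF and 6.25, 11.9 and 10.9 for CV. Values in females were 34.7, 23.9 and 26.8 for GF and 9.25, 9.40 and 13.2 for CV. The CV libraries straddled 10, with a CV male mean of 9.69 ± 3.03 (SD, n = 3), and stayed below all GF libraries. Gzma fell by 1.48 ± 0.40 (SE) on the log2 scale in males and by 1.34 ± 0.40 in females (limma adjusted p = 0.0135 and 0.00966). The change in males was -1.58 without CV male 3 (0.0223), and the call in males was lost without GF male 1 (0.055) and without GF male 3 (0.0616).

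Ccl5 (ENSMUSG00000035042, chr11:83525778-83530518, minus strand) encodes a chemokine that activated T and NK cells release. GF males had 83.3, 103.8 and 131.8, and CV males had 28.1, 28.6 and 40.9. GF females had 152.5, 117.0 and 69.0, and CV females had 14.7, 16.8 and 19.3. Over both sexes the change was -2.14 ± 0.22 on the log2 scale (limma adjusted p = 1.96e-06). In males the log2 change was -1.67 ± 0.32 (SE) and in females -2.60 ± 0.32 (limma adjusted p = 0.00216 and 1.5e-05), and in males it was -1.84 without CV male 3 (0.00294). The labelled CV females were all below the labelled CV males, of which the highest was CV male 3, the library that goes against its label. The difference of the effect between sexes did not pass (0.93 ± 0.45, limma adjusted p = 0.430), and that was the smallest such p among the 9 members.

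**Figure D2:**
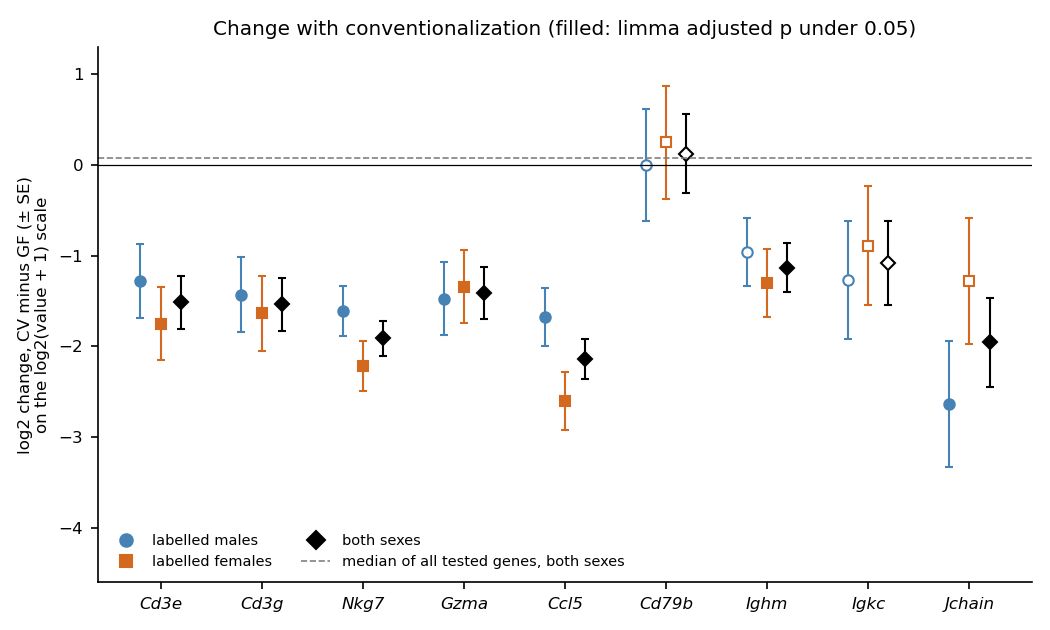
Log2 change, CV minus GF, on the log2(value + 1) scale with its standard error for the 9 tested genes in labelled males, labelled females and both. Filled symbols passed the limma test, the dashed line is the median of all tested genes (0.07), and Cd79b alone lies at or above 0.

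In B cells Cd79b (ENSMUSG00000040592, chr11:106311341-106314762, minus strand) encodes a signalling partner of the surface antibody. It had 14.3, 6.65 and 8.50 in GF males, 7.81, 14.3 and 7.27 in CV males, 12.1, 2.66 and 21.1 in GF females and 10.9, 9.40 and 13.2 in CV females. The groups overlapped in both sexes, and GF female 2 rested on 1 read. Its mean was below 10 in males of both conditions (9.83 in GF and 9.80 in CV). The log2 change over both sexes was 0.12 ± 0.44 (SE, limma adjusted p = 0.818), and its sign depended on the scaling. A change of either sign lies within this error, so the test shows neither a change nor its absence.

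Ighm (ENSMUSG00000076617, chr12:113418558-113422730, minus strand), the constant region of IgM, fell. GF males had 57.3, 93.2 and 49.6 and CV males 45.8, 35.8 and 20.9. GF females had 92.1, 159.6 and 70.9 and CV females 35.8, 58.4 and 31.9. Within each sex the conditions did not overlap, although CV female 2 was above GF males 1 and 3. Over both sexes the log2 change was -1.13 ± 0.27 (SE, limma adjusted p = 0.0016). In females it was -1.30 ± 0.38 (0.00783), and in males -0.96 ± 0.38 did not pass (0.0642; -0.65 without CV male 3, 0.229). Under scaling to all reads the change over both sexes was -0.58 and missed the threshold (0.0592).

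Jchain (ENSMUSG00000067149, chr5:88519809-88527891, minus strand), which encodes the joining chain of polymeric IgA and IgM, had 66.3, 24.0 and 14.2 in GF males and 4.68, 8.75 and 0.909 in CV males. In females it had 7.55, 7.98 and 19.2 in GF and 3.79, 4.70 and 3.01 in CV. Every CV library was below 10 and below the GF libraries of its sex, and GF male 1 stood apart from the other GF libraries. Over both sexes the log2 change was -1.96 ± 0.49 (SE, limma adjusted p = 0.00258), in males -2.64 ± 0.69 (0.0115) and in females -1.27 ± 0.69 (0.128, not past the threshold). Without GF male 1 the male change was -2.04 (0.0824) and that over both sexes -1.66 (0.0121). Without CV male 3, which rested on 1 read, the male change was -1.98 (0.0418).

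Igkc (ENSMUSG00000076609, chr6:70726435-70726966, plus strand), the constant region of kappa light chains that IgM, IgG and IgA share, varied widely among GF mice. It had 134.3, 46.6 and 15.6 in GF males, 13.5, 15.1 and 31.8 in CV males, 39.2, 109.1 and 24.9 in GF females and 13.9, 39.0 and 29.5 in CV females. The conditions overlapped in both sexes. The log2 change over both sexes was -1.08 ± 0.46 (SE) and missed the threshold (limma adjusted p = 0.0531). It passed under several other settings, among them edgeR on the recovered reads (-1.44, 0.00954) and limma without CV male 3 (-1.26, 0.03), and without GF male 1 it was -0.70 (0.168).

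Igha (ENSMUSG00000095079, chr12:113254830-113260236, minus strand), the constant region of IgA, had reads in CV livers only. It had 0 reads in each of the 6 GF libraries, of 43269670 reads in genes together, and 116 of 70858136 in the 6 CV libraries. CV males had 10.9, 14.3 and 9.99 (21, 18 and 11 reads), and CV females had 10.1, 8.06 and 18.1 (24, 12 and 30 reads). With the deposited size factors, the level pooled over CV livers was at least 16.3-fold higher over both sexes. In males it was at least 10.02-fold and in females at least 6.21-fold higher. Here 3 reads over a GF group are taken as the limit that a count of 0 allows. The pooled CV level enters as it stands, without its counting error or the spread between mice, and single livers can lie lower. These bounds were not computed under other scalings, which would move them. The test of edgeR on the recovered reads, without a filter on low values, called Igha higher over both sexes (adjusted p = 6.51e-10), in males (2.76e-05) and in females (9.18e-05). By that test 18.5% of 22953 genes rose over both sexes, 9.16% in males and 16.3% in females. Without CV male 3 the adjusted p in males was 4.25e-05. Igha was the 1 gene of the 22953 (0.00436%) with 0 reads in all GF libraries and at least 10 reads in every CV library, a description chosen after the values were seen. Intervals and limits from counts cover counting error only.

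The share of Igha among heavy chain constant reads does not depend on the scaling between libraries. It was taken over Ighm, Ighg1, Ighg2b, Ighg2c, Ighg3, Ighe and Igha, a measure added after the data were seen. In GF libraries it was 0% of 35 to 427 reads, which allows up to 0.703% in GF male 1 and up to 8.57% in GF male 3, the libraries with most and fewest such reads. In CV males it was 17.6, 24.0 and 25.0%, with a mean of 22.2% ± 3.99 (SD, n = 3). In CV females it was 20.0, 9.84 and 28.3%, with a mean of 19.4% ± 9.25 (SD, n = 3). The lowest CV share, in female 2, had a 95% Wilson interval of 5.72 to 16.4%. All 6 CV libraries were above all 6 GF libraries. This follows from the 0 Igha reads in GF libraries, which were known when the share was chosen, so no test of it is given.

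The shares of the other isotypes were not tested. IgM took 50 to 73.9% of these reads in CV libraries and 93.8 to 100% in 5 GF libraries, and 14.99% in GF male 1. The IgG genes took 8.40 to 22.7% in CV and 0 to 6.15% in those 5 GF libraries. In GF male 1 they took 85.0%, with 347 of 427 reads from Ighg1 alone, and this is also the library with the highest Jchain and Igkc. Without Ighg1 in the sum the mean Igha share was 22.3 percentage points higher in CV (20.8 with it). The IgG genes are similar to each other, and reads could be split among them, so they are given as a sum.

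**Figure D3:**
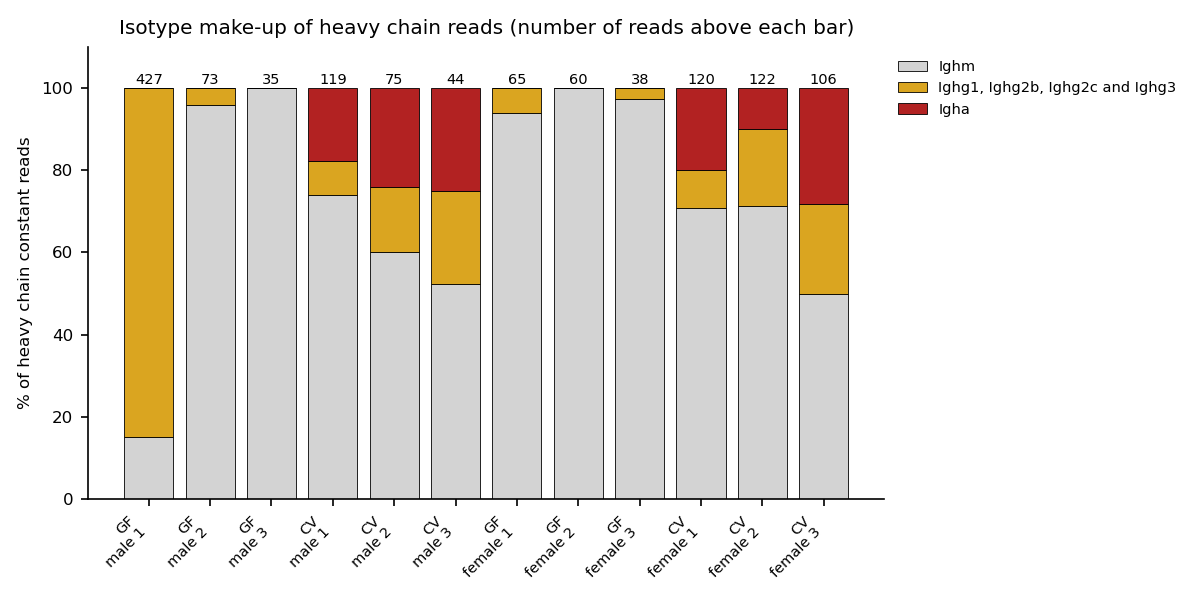
Share of heavy chain constant reads of each library that belong to Ighm, the IgG genes and Igha, in percent, with the number of reads above each bar. Igha takes 9.84 to 28.3% in the CV libraries and 0% in the GF libraries, and the IgG genes take 85.0% in GF male 1.

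Variable region genes, which encode the part of an antibody or T cell receptor that binds antigen, were counted as families. Of 103 Igkv genes a median of 4.5 had reads in GF libraries (4 to 12) and 18 in CV libraries (13 to 26), while the median summed level was similar (19.9 and 18.9). Of 108 Ighv genes a median of 4.5 had reads in GF (2 to 7) and 9 in CV (3 to 14). GF male 1 held 118 Igkv and 79 Ighv reads, the most of any library in either family. The 22 Trbv genes of the T cell receptor summed to 7.98 to 22.6 in GF and 4.82 to 8.75 in CV. The number of genes with reads depends on depth, which was higher in CV libraries, and these family values were not tested.

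In the males, 6 of the 9 tested members fell and 0 rose (limma), where 15.4% of genes fell and 14.1% rose. Those were Cd3e, Cd3g, Nkg7, Gzma, Ccl5 and Jchain. Among females, 6 fell and 0 rose where 26.0% of genes fell and 29.8% rose, with Ighm in place of Jchain. Without CV male 3 the members called in males were 5. Fits with 1 library left out called 1604 to 3884 of all genes in males. For 7 of the 10 members, in each sex, every CV library was below every GF library, where this held for 21.1% of genes in males and 31.0% in females. They were Cd3e, Cd3g, Nkg7, Gzma, Ccl5, Ighm and Jchain in both sexes, and for 17.9% of genes it held in both. Igha was the 1 member above every GF library in each sex, as were 22.0% of genes in males and 34.0% in females. The shares of genes without overlap are over the 11782 tested genes, which leave out Igha, while the 10 members include it. The difference of the effect between sexes passed for 0 of the 9 members and 0 of 11782 genes (0.00%) by limma, with 1382 genes at an unadjusted p under 0.05. DESeq2 called 23 genes for that difference, edgeR 0, and edgeR without a filter 105 (0.457%), with 0 of the members among them in each case.

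Several members were near or below 10. As a group mean, Cd79b and Igha were below 10 in GF males, Igha in GF females, Gzma, Cd79b and Jchain in CV males, and Cd3e, Cd3g and Jchain in CV females. Nkg7, Ccl5, Ighm and Igkc were above 10 in all 12 libraries. Of the 30 values in each group, 5 were below 10 in GF males, 6 in GF females, 10 in CV males and 13 in CV females. In raw reads the 2 CD3 genes rested on 8 to 32 reads per library and Nkg7 on 29 to 112.

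Compared per kilobase of exon, so that genes can be set side by side, the levels in GF livers ran in the order Nkg7 (118 ± 19.5, SD, n = 6), Igkc (116 ± 91.0), Ccl5 (114 ± 32.1), Ighm (46.2 ± 21.0), Gzma (28.4 ± 6.08), Cd3g (9.44 ± 3.44), Jchain (9.21 ± 8.76), Cd79b (7.61 ± 4.51), Cd3e (7.32 ± 2.36) and Igha (0). Among GF libraries neighbours in this order overlapped in range, except Gzma above Cd3g and Cd3e above Igha. In CV livers Igkc led (44.7 ± 20.7), ahead of Nkg7 (31.1 ± 8.92), Ccl5 (25.8 ± 10.2), Ighm (20.2 ± 6.78), Gzma (10.1 ± 2.43) and Cd79b (7.33 ± 2.00). Igha (4.46 ± 1.37) came next, above Cd3g (2.95 ± 0.624), Cd3e (2.34 ± 0.499) and Jchain (1.71 ± 1.03). All neighbours in the CV order overlapped in range.

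Other genes of T cells, from a list chosen with earlier results of these data known, mostly fell too. Of 17 tested, 14 fell and 2 rose over both sexes, with a median log2 change of -1.42 (0.07 over all genes). In males 8 fell and 1 rose, and in females 13 fell and 2 rose. Scaled to all reads, 9 fell and 2 rose. Beside this and each later list stand all tested genes, of which 28.7% fell and 32.3% rose over both sexes. Their shares were 15.4% and 14.1% in males and 26.0% and 29.8% in females. Cd8b1, a chain of the coreceptor of cytotoxic T cells, ranged from 17.3 to 49.8 in GF (median 22.6) and from 0.602 to 6.77 in CV (median 4.29). Lck, the kinase that starts receptor signalling, went from a median of 51.1 (40.3 to 72.5) to 7.55 (6.25 to 20.7), and the receptor constant gene Trac from 17.6 (11.3 to 21.3) to 5.13 (2.73 to 11.1). Cd4, the coreceptor of helper T cells, was below the filter, at 0 to 6.65 in GF and 0 to 7.16 in CV. The exceptions were Zap70, the kinase that binds the CD3 chains, which rose by 1.71 ± 0.28 on the log2 scale (limma adjusted p = 9.19e-05), and Tcf7, a T cell transcription factor that rose by 1.15 ± 0.30 (0.00364). Zap70 had the highest mean of the list, with a median of 55.0 in GF (19.7 to 78.5) and 165.4 in CV (104.1 to 231.8). Tcf7 had 15.5 (7.09 to 27.9) and 35.1 (19.1 to 53.6). Which cells these reads came from was not tested.

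Among NK and cytotoxic genes 6 of the 33 in the table were abundant enough to test, and 4 fell and 0 rose (2 in males and 4 in females). The list had a median log2 change of -1.06, which was -0.51 with 3 called under scaling to all reads and -0.50 with 3 called after removal of the length and GC trend. Klrk1, a receptor of NK and cytotoxic T cells, had medians of 13.9 in GF and 14.5 in CV and did not pass (log2 change -0.11 ± 0.37, limma adjusted p = 0.810). Gzmb, a second granzyme, had a median of 45.01 in GF (28.8 to 61.9) and 12.9 in CV (4.03 to 17.3). Il2rb, a receptor chain for IL-2 and IL-15, had 52.6 (45.2 to 70.9) and 20.8 (10.9 to 29.5). Itga1, an integrin of resident lymphocytes that other cells of the liver also carry, fell by 0.70 ± 0.18 on the log2 scale (limma adjusted p = 0.00319). The NK receptor Ncr1 was near 0 in both conditions (0 to 11.3 in GF and 0 to 3.98 in CV) and could not be tested by limma.

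Of 8 other B cell genes tested, 5 fell and 1 rose over both sexes (median log2 change -1.46), with 4 and 0 in males and 5 and 0 in females. Bach2, a transcription factor also expressed in T cells, had a median of 203.6 in GF (99.7 to 271.7) and 49.2 in CV (39.0 to 60.4). Cd79a, the partner chain of Cd79b, was below the filter, at 1.92 to 22.6 in GF and 3.12 to 11.4 in CV. Cd72 and Blnk had log2 changes of 0.07 ± 0.33 and -0.35 ± 0.38 (SE) that did not pass. Ly6d rose by 1.40 ± 0.54 on the log2 scale (limma adjusted p = 0.0343), and 0 genes of the list rose when values were scaled to the reads outside the abundant loci or after removal of the length and GC trend.

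Of 8 tested plasma cell genes 3 rose and 0 fell (1 and 0 in males, 3 and 0 in females), near the 32.3% of all genes that rose over both sexes and the 14.1% in males, while 2 rose and 2 fell when values were scaled to the reads outside the abundant loci. They were Sdc1, Ssr4 and Txndc5, with medians of 203.3, 544.9 and 559.0 in GF and 876.1, 1174 and 1073 in CV, and hepatocytes express them too. Defining plasma cell genes stayed low, with Mzb1 at 0 to 5.75 in GF and 0.421 to 3.63 in CV, and Tnfrsf17 at 0 in all CV libraries. Pou2af1 ranged from 1.33 to 58.2 in GF and from 0.795 to 2.73 in CV.

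Genes that carry or bind antibodies rose where the test was passed, 7 of 10 and 0 fell (4 in males and 5 in females). Of all tested genes 32.3% rose over both sexes, 14.1% in males and 29.8% in females. When values were scaled to the reads outside the abundant loci 4 of the 10 rose, and 5 of them rose after removal of the length and GC trend. Fcgrt, which encodes the neonatal Fc receptor, had a median of 469.8 in GF (264.2 to 576.2) and 2009 in CV (1216 to 2158). Pigr, the receptor that carries polymeric IgA across epithelium and into bile, had 1662 (1380 to 2944) and 3807 (1571 to 5553). The asialoglycoprotein receptor genes Asgr1 and Asgr2 rose by 1.59 ± 0.21 and 1.51 ± 0.19 on the log2 scale (limma adjusted p = 1.34e-05 and 9.14e-06). Hepatocytes express all of these named genes, and 13 of 19 hepatocyte markers rose and 0 fell over both sexes (17 and 0 scaled to all reads, 8 and 2 scaled to the reads outside the abundant loci).

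In the list of lymphocyte chemokines and survival cytokines 5 of 18 tested genes fell and 0 rose (1 in males and 5 in females), where 28.7% of all genes fell over both sexes and 15.4% in males, so the count stands near or below that of all genes. When values were scaled to all reads 4 fell and 4 rose. Cxcl11, a ligand of Cxcr3, had a median of 44.1 in GF (9.32 to 115.0) and 5.67 in CV (3.36 to 8.75). Il15ra, which presents IL-15 to NK and T cells, had 924.8 (488.4 to 1384) and 404.7 (361.3 to 627.3), and Vcam1 and Cxcl16 did not pass. Genes of all leukocytes were divided, with 11 of 23 lower and 0 higher, and under scaling to all reads 4 lower and 5 higher. Ptprc, which encodes CD45, had a median of 195.6 in GF (139.7 to 348.9) and 54.3 in CV (27.6 to 99.0), whereas Lcp1, Laptm5 and Tmsb4x had log2 changes of 0.26, 0.05 and 0.12 that did not pass.

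Markers of other cells moved in both directions. Of 20 Kupffer cell and macrophage genes 11 rose and 1 fell (16 and 0 scaled to all reads, 7 and 2 scaled to the reads outside the abundant loci), with C1qa at a median of 76.8 in GF and 313.5 in CV, while Clec4f, which defines Kupffer cells, did not pass (0.23 ± 0.18 on the log2 scale). 6 of 8 erythroid genes fell and 0 rose (median log2 change -2.22), among them Hbb-bs, with a median of 3054 in GF and 680.6 in CV. Blood left in the liver carries lymphocytes too, and its part in the fall of the members was not tested. Of 4 tested neutrophil and monocyte genes Lcn2 rose and Csf3r fell. Of 10 genes from a list for lymph node, spleen, gut and duct tissue 5 rose and 0 fell (3 rose when scaled to the reads outside the abundant loci). Among the 5 were Clu, with medians of 3383 in GF and 12867 in CV, and Fabp2, with 362.6 and 1163. Both were well above 10 in every library of either condition, so their rise is no measure of such tissue. The gut factors Cdx1 and Cdx2 were at 0 in every CV library.

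**Figure D4:**
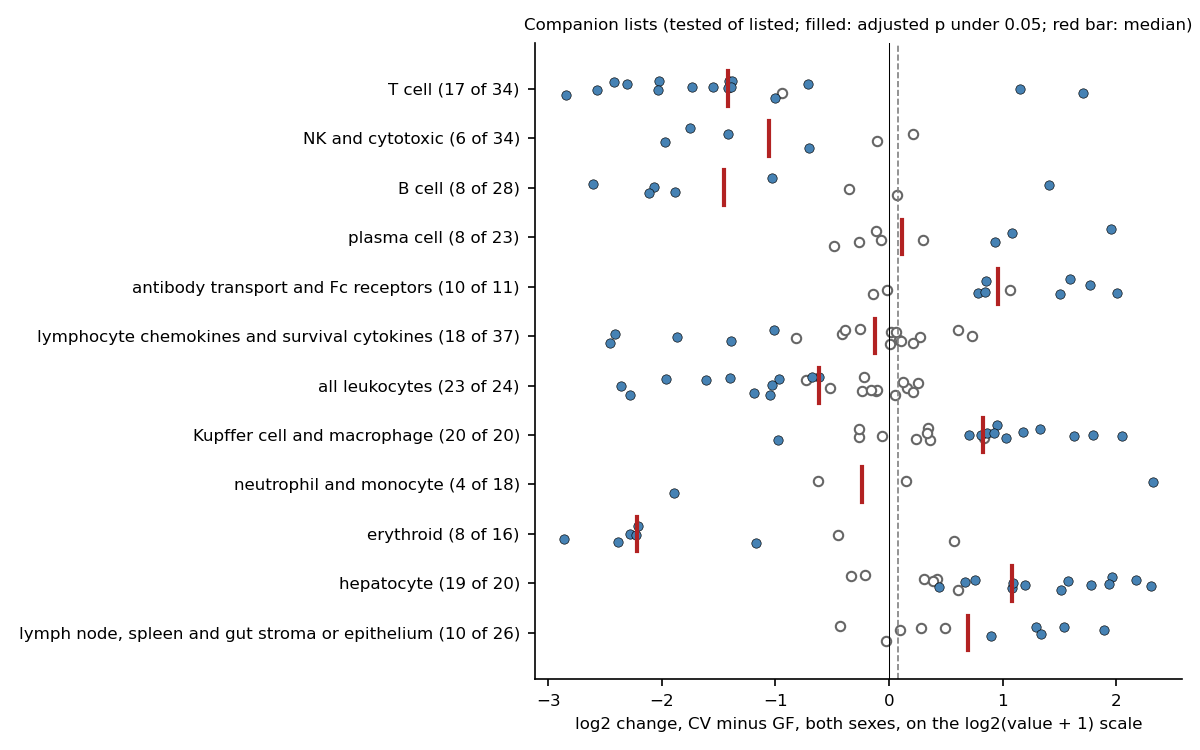
Log2 change, CV minus GF, over both sexes for each tested gene of the 12 companion lists, on the log2(value + 1) scale, with list medians as red bars. T cell, NK and B cell lists have medians of -1.42, -1.06 and -1.46, and the hepatocyte list has 1.08.

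Within groups the members were correlated in both directions. After the group means were removed from the log2 values, the highest Pearson correlations between members over 12 libraries were 0.75 for Cd3e with Nkg7 and 0.60 for Cd3g with Ccl5, and the lowest was -0.82 for Ccl5 with Jchain. Genes most like a member by this measure were Fip1l1 for Cd3e (0.91), Blm for Cd3g (0.93), Dnajc17 for Nkg7 (0.92), Clk4 for Gzma (0.95), Gstp3 for Ccl5 (0.93), Rassf7 for Cd79b (0.97), Fam118b for Ighm (0.95), Lrrc25 for Igkc (0.95) and Pex26 for Jchain (0.94). These are the highest of 11782 genes over 12 libraries that share depth and make-up, and they are a description only.

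The size of the fall depended on the scaling and its direction did not, except for Cd79b. The median log2 change of all genes was 0.07 with the deposited size factors, 0.62 under scaling to all reads and -0.38 under scaling to the reads outside the abundant loci. Nkg7 changed by -1.36, -1.91 and -2.36 under all reads, the deposited factors and the reads outside the abundant loci, and Ighm by -0.58, -1.13 and -1.58. With the share of mitochondrial ribosomal RNA as a covariate, 93.5% of whose variance lies between groups, 0 members and 0 genes passed over both sexes, and that make-up and the condition cannot be told apart.

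**Figure D5:**
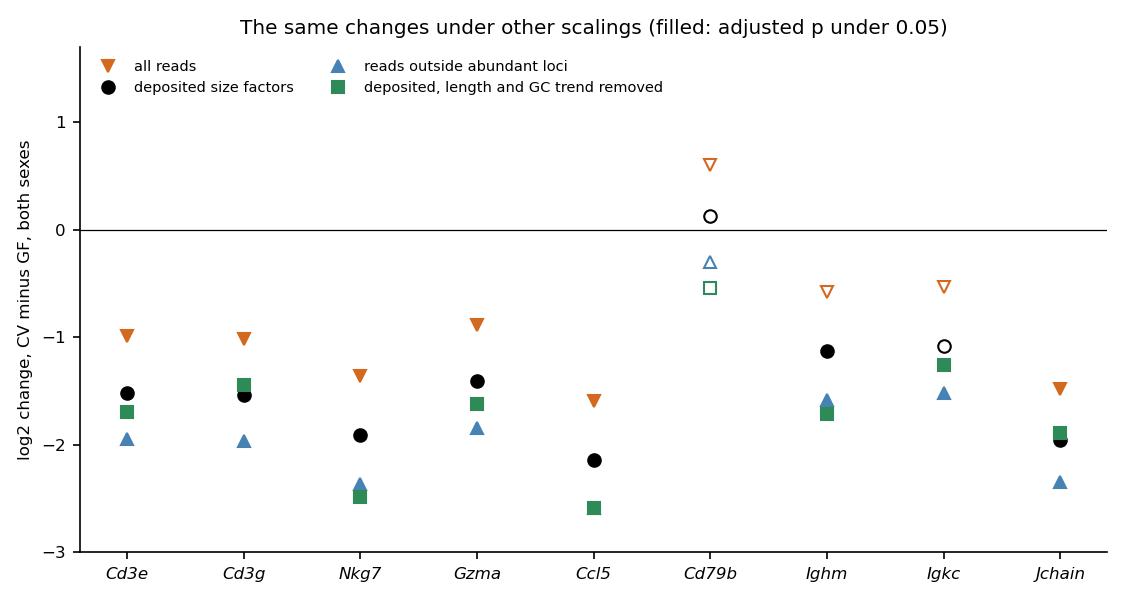
Log2 change over both sexes of the 9 tested genes under 3 scalings and after removal of a trend on transcript length and GC content, with filled symbols for those past the limma threshold. All genes but Cd79b lie below 0 under each, and Ighm does not pass under scaling to all reads.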

How the data were processed

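The deposited table gives, for liver RNA of 12 mice, a normalized signal per gene. Per the labels, total RNA was extracted with a Qiagen kit, made into libraries with a stranded TruSeq mRNA kit and sequenced on an Illumina HiSeq instrument. The submitters' processing notes name HTSeq 0.6.1p1, DESeq2 and GRCm38, and the aligner, the annotation and the strand setting of the counting are not given in the sources used here. The authors divided the read counts by 1 size factor per library: in each library 100% of the deposited signal values gave whole reads to within 0.01 of a read, and the step matched the size factor recomputed here, so whole reads were recovered. The paper given with the series describes another experiment and no method was taken from it. Columns of other samples numbered 0.

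GENCODE mouse release 21 (GRCm38) listed 97.9% of the genes and gave names, coordinates and exon lengths. Genes with a mean of at least 10 were tested with limma 3.58.1 on log2(value + 1), in 1 fit of 4 group means with a variance trend, Benjamini-Hochberg adjustment over 11782 genes and a threshold of 0.05. Igha was tested on recovered reads with the quasi-likelihood test of edgeR 4.0.16, TMM factors and no filter, adjusted over 22953 genes. DESeq2 1.42.0 was an alternative. The fits were tested on simulated data with 200 changed genes. Each mouse gave 1 library, and nothing in the labels names litters or batches.

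The members, the lists and the tests were chosen with earlier results of these data known. Named besides the members are, per list, the 3 genes with the highest mean, the 2 with the smallest adjusted p in each direction and defining markers, and for each member the 3 genes with the highest correlation within groups, of which the first is printed (mean of at least 10, predicted genes left out). Not every gene these rules select is printed. Reads from overlapping antisense genes cannot be told apart where the strand setting is unknown.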

Additional observations from a re-analysis of the deposited data

Results flagged for a closer look

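Each of the 10 members, and Ighg1, was examined within the 6 GF and within the 6 CV libraries for a library far from the others, in 21 groups of values (GF Igha, 0 throughout, was left out), and 2 were found. Chance marks about 1 in 20 such groups when the values are normally distributed, which was not checked here. Dixon's test used unlogged values of both labelled sexes together, and no result on the log2 scale is given. Ighg1 was the only gene from outside the members, and its high value in GF male 1 already shaped the isotype shares above. Its mark is therefore not to be set against that rate. Jchain was 66.3 in GF male 1, where the next GF library had 24.0, a gap of 0.721 of the range of the group, above the critical value of Dixon's test. Ighg1 was 310.7 in the same library, where the next had 3.99, a gap of 0.987 of the range. The same mouse had the highest Igkc of all libraries (134.3). Its Ighm (57.3), Cd3e, Cd3g, Nkg7 and Gzma lay between those of the other GF males, and its Ccl5 (83.3) was the lowest of the 3. Without this library the change of Jchain over both sexes was -1.66 on the log2 scale (limma adjusted p = 0.0121).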

How the results depend on the processing

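Over both sexes the 7 calls among the members were made under each alternative except scaling to all reads (6) and the mitochondrial ribosomal RNA share as covariate, which left 0 members in each comparison and 0 genes over both sexes, 3 in males, 0 in females and 1 for the difference between sexes. Males depended most on settings: 3 members were called under scaling to all reads and 1 after thinning to equal depth, and in females 2 were called under scaling to all reads. Under that scaling 788 of 11782 genes fell in males (1814 with the deposited factors) and 1119 in females (3060). The number of all genes called after thinning is not given here. Leaving out each library in turn gave 1604 to 3884 genes (3 to 7 members) in males, with 1604 and 3 without GF male 1, 2135 genes without GF male 3 and 2183 without CV male 1, 6601 to 7445 genes over both sexes and 5518 to 6964 in females. For the difference between sexes it gave 0 to 291 genes (291 without CV male 1, 4 without CV male 3), and scaling to all reads gave 11, DESeq2 23 and edgeR without a filter 105.

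Cd79b, never past the threshold, changed sign. Over both sexes it was -0.30 scaled to the reads outside the abundant loci, -0.14 by edgeR, -0.014 by edgeR without a filter, -0.094 by DESeq2, -0.66 with the covariate and -0.54 after removal of the length and GC trend. In males it was -0.0012 with a pseudocount of 5, and under those settings -0.27, -0.094 (edgeR), -0.043 (DESeq2), -0.47 and -0.50, with -0.23 after thinning. In females it was -0.33, -0.19, -0.031, -0.15, -0.85 and -0.59 in the order given for both sexes. With single libraries left out it ranged from -0.25 to 0.40 over both sexes, from -0.28 to 0.28 in males and from -0.49 to 0.81 in females. With the covariate, Igkc turned to 2.73 over both sexes, 1.02 in males and 4.45 in females, and Gzma to 0.079 in females. The causes were not tested.

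The replicate numbers did not pair the mice: same-numbered GF and CV libraries had correlations of deviations from group means of -0.228 to -0.0936 in males and -0.167 to 0.0188 in females. With the replicate number as a block 6827 genes were called over both sexes (7194 without), 2603 in males (3474) and 6113 in females (6572). The fitted change of Igha stayed on the same side under each alternative run. That follows from its lack of reads in GF libraries, so it is no check of the result. Depth limits the low members, which rest on few reads per library.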
